A study of Mus musculus with 4 samples.

Results

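The HoxA gene cluster of the mouse and its flanking sequence were examined in 2 lists of accessible chromatin regions from the embryonic limb. The regions were those that overlap chr6:52000000-52900000 on the mouse build mm10, which were 130 of the 99356 E10.5 regions and 31 of the 37413 E11.5 regions on chromosomes 1 to 19, X and Y. The genes described are Hoxa3, Hoxa4, Hoxa5, Hoxa6, Hoxa7, Hoxa9, Hoxa10, Hoxa11 and Hoxa13, all 9 of which lie in that window. Their neighbours Hoxa2 and Evx1 are given beside them.

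Accessibility was measured by ATAC-seq, in which the Tn5 transposase inserts sequencing adaptors into open DNA. All 4 samples are wild type and hold fore- and hindlimb cells, with 2 replicates for E10.5 and another 2 for E11.5 (E means embryonic day). The protocol text calls the earlier stage E10, and the sample titles were followed here. The series concerns the control of the limb gene En1, and each stage is represented by 1 deposited peak list that joins its replicates. The sources used here do not say how many embryos a sample holds, and cells were fixed with paraformaldehyde before transposition.

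Hox genes encode homeodomain transcription factors that stand in a row on the chromosome, and their order in the row follows the order in which they are used along the body axis and in time. In the limb, the genes at the Hoxa13 end of the HoxA cluster act together with their HoxD counterparts: the group of Hoxa9 and Hoxa10 in the upper limb segment, Hoxa11 in the middle segment and Hoxa13 in the hand and foot. Enhancers that drive the cluster in the distal limb are known to lie outside it on the Hoxa13 side, beyond Evx1 as well as before it.

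Each region carries 3 values set by the authors, a signal value, a −log10 p and a score. The signal value is a total over the region, so that wide regions have high values, and it serves here to rank regions within a list. The percentile of a region is the percent of the other regions of its own list that have a lower signal value, and the percentiles of lists of different lengths show no change between stages. With 1 joined list per stage there is no spread between replicates, sequencing depth is unknown, and no stage difference below could be tested. In mixed limb tissue, fewer cells of a type and less open chromatin per cell cannot be told apart.

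The whole E10.5 list was longer than the E11.5 list by a ratio of 2.66 in regions and 2.88 in covered bp, and any interval of the genome has to be read against this. Median region widths were alike, with 624 bp for the earlier and 598 bp for the later list. Regions lay within 1 kb of the start sites of 9 of 9 limb mesenchyme marker genes at E10.5 and 7 of 9 at E11.5, where Tbx5 and Pitx1 lacked one. Of 6 genes typical of other organs, only Cdx2 had such a region, at both stages. Of all protein-coding genes with a known strand, 66.3% had such a region in the E10.5 list and 59.9% in the E11.5 list. Of the markers of other limb cell types, some had a region near the start and some did not: 5 of 6 ectoderm genes at E10.5 and 3 of 6 at E11.5, 3 and 1 of 4 endothelial genes, 2 and 2 of 4 blood genes, 4 and 2 of 4 muscle precursor genes, 3 and 2 of 3 neural genes, and 3 and 3 of 3 cartilage genes. Trp63, Tek, Gata1 and Spi1 had none at either stage. The part of these cell types in the HoxA values was not tested.

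The promoter sequences below are shown for some of the members, at starts that differ in what the lists hold there. Hoxa5 and Hoxa6 are the members with an E10.5 region and no E11.5 region within 1 kb of the start site. Hoxa11 lies under the widest E10.5 region of the window. The starts of Hoxa11 and Hoxa13 and the inner start site of Hoxa10 are covered in both lists, as is the outer Hoxa10 start, which is not shown. Each run holds the 250 bases before the RefSeq start site, 5′ to 3′ on the gene's own strand, in GRCm38.p6 (mm10) coordinates. Capitals mark matches, on either strand, to the TATA box letters TATAAA, to the box known as CCAAT and to the GC box letters GGGCGG, which adjoin each other in the Hoxa13 run.
Hoxa5, minus strand, chr6:52204588-52204837: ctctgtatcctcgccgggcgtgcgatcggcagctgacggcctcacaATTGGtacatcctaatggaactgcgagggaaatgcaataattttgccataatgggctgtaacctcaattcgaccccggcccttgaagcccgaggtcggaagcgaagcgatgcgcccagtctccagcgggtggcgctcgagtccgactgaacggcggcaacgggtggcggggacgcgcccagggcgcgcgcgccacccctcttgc
Hoxa6, minus strand, chr6:52208673-52208922: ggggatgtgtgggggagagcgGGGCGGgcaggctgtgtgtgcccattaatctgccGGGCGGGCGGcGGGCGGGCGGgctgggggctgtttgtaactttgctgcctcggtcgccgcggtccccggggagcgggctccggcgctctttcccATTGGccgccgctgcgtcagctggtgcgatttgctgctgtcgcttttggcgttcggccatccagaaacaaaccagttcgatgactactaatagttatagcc
Hoxa10, inner start, minus strand, chr6:52234940-52235189: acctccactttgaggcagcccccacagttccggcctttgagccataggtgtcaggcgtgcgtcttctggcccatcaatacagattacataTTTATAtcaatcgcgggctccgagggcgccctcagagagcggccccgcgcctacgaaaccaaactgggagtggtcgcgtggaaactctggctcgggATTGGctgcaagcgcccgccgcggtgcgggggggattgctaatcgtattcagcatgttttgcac
Hoxa11, minus strand, chr6:52245811-52246060: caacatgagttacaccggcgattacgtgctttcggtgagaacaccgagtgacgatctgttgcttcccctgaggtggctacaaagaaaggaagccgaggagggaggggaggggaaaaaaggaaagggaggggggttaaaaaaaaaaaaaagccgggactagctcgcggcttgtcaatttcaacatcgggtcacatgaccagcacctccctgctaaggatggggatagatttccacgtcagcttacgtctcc
Hoxa13, minus strand, chr6:52260881-52261130: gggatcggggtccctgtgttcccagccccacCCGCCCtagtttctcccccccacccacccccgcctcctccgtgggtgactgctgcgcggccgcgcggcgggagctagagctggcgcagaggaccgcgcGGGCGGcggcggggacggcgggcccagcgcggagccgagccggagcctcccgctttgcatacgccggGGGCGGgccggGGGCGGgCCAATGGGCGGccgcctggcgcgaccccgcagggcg

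The RefSeq promoter table held 8 of the 9 members, with 9 start sites in all, since Hoxa10 has a pair of them. Hoxa4 is named only. Counted over windows of 300 bases that add the 50 transcribed bases to these runs, the CpG number was 45 in Hoxa13, 29 in Hoxa5, 26 in Hoxa6, 21 at the inner and 12 at the outer Hoxa10 start, 20 in Hoxa3, 15 in Hoxa11, 9 in Hoxa7 and 4 in Hoxa9. The median over all 32851 promoters of the table was 7. The GC content of the Hoxa13 window was 81.0%, beside a median of 52.7% over all promoters.

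Hoxa9, the member with the lowest CpG number, had an E11.5 region within 1 kb of its start, and Hoxa5, the member with the next highest after Hoxa13, had none. TATAAA was found at 1 of the 9 member starts, the inner Hoxa10 start, and in 13.6% of all promoters. CCAAT was found at 4 of 9 (Hoxa5, Hoxa6, inner Hoxa10 and Hoxa13) and in 37.4% of all promoters. GGGCGG was found at 4 of 9, with 6 matches in Hoxa13, 5 in Hoxa6, 2 at the outer Hoxa10 start and 1 in Hoxa9, and in 35.7% of all promoters. Some of the matches in Hoxa13 and at the outer Hoxa10 start lie wholly or partly in the transcribed bases. Hoxa3, Hoxa7 and Hoxa11 matched none of the 3. The letters TTTATNG (posterior HOX and CDX type, in 10.9% of all promoters), TGATNNAT (PBX-HOX type, 8.85%) and the core motif of the insulator protein CTCF (2.44%) were in none of the 9 windows on either strand.

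Between Hoxa9 and Hoxa10 the cluster also encodes a microRNA, miR-196b, a known repressor of Hox messenger RNAs. Its mature sequences from RefSeq are shown with the seed (bases 2 to 8), the part that pairs with targets, in capitals.
mmu-miR-196b-5p: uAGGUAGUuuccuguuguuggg
mmu-miR-196b-3p: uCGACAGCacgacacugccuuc

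Its hairpin, at chr6:52230081-52230165 on the minus strand, lay wholly inside an E10.5 region of 2868 bp with a signal value of 8685, at percentile 97.1. The E11.5 region there, with a signal value of 796, lay 280 bp upstream of the hairpin, on the Hoxa10 side. The 2 mature arms carry different seeds.

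At E10.5 the HoxA cluster was covered by accessible regions over most of its length, and the E11.5 list held short regions inside the same intervals. The cluster, taken with 5 kb on each side (115.514 kb), held 36 regions at E10.5 that covered 69.0% of it, and 17 regions at E11.5 that covered 12.9%. Across the whole window, covered sequence came to 165544 bp in the earlier list and 23684 bp in the later one, a ratio of 6.99 beside the 2.88 of the whole lists. The bp ratio was 5.36 in the cluster and 11.45 on its Hoxa13 side. By number of regions the ratio was 4.19 in the window and 2.12 in the cluster, beside 2.66 for the whole lists, so that the cluster exceeded the lists in covered bp and not in number.

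By signal value, the median percentile of the window's regions was 59.4 within the E10.5 list and 41.9 within the E11.5 list. At E10.5, 23 of the 130 regions were in the highest 10% of their list and 6 in the highest 1%, of which 5 lay in the cluster. At E11.5, none of the 31 was in the highest 10%. Of the 23, 13 lay in the cluster. The median signal value of the E10.5 regions of the cluster was 2221, beside 546 for the E11.5 regions of the cluster.

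**Figure D1:**
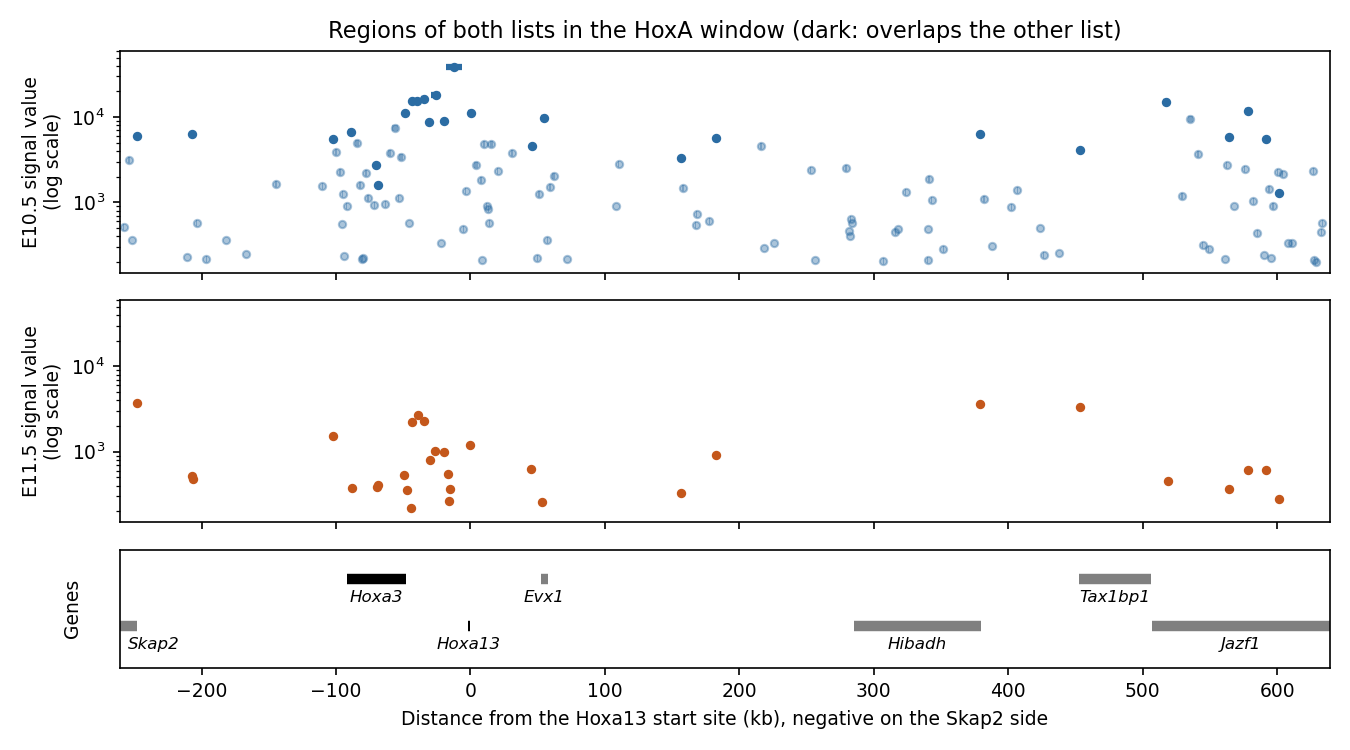
Signal value (log scale) of each region in the E10.5 list (top) and the E11.5 list (middle) against distance from the Hoxa13 start site in kb, with genes below (Hoxa3 and Hoxa13 mark the cluster). Horizontal segments span the region's width, dots mark its centre, and pale dots overlap no region of the other list. At E10.5 104 of 130 regions are pale and at E11.5 none of 31, and the 5 highest E10.5 values stand over the cluster.

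Overlap between the lists was complete from the E11.5 side only. Of the 31 E11.5 regions of the window, 31 overlapped an E10.5 region by at least 1 bp (100%, 95% Wilson interval 89.0 to 100), where 91.8% of all E11.5 regions did. By the separate rule of 3 counts, the count of 0 without overlap allows a share of up to 9.68%, close to the limit that the Wilson interval gives. From the E10.5 side, 26 of the 130 overlapped a later one (20%, 14.0 to 27.7), where 32.3% of that whole list did. These intervals cover counting error only, and neighbouring regions are not independent.

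Stricter rules of overlap left the E10.5 share below that of its list and put the E11.5 share below it too. With at least 50% of both regions in common, 7 of the 130 E10.5 regions of the window were matched (5.38%, list 20.3%) and 7 of the 31 E11.5 regions (22.6%, list 53.8%). A pair cannot meet this rule when the narrower region measures less than 50% of the wider. The median width ratio of overlapping pairs was 3.09 in the window and 1.65 over the lists, so this rule also measures width. With summits within 100 bp, 17 of 130 were matched (13.1%, list 26.6%) and 17 of 31 (54.8%, list 70.6%).

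The E10.5 share was also below that of regions with like signal values elsewhere. Over the whole E10.5 list, the share with an E11.5 partner ran from 3.63% in the lowest decile by signal value to 96.7% in the highest. With that dependence applied to the signal values of the 130 HoxA regions, the list gives 39.8%, and with −log10 p in place of signal 34.5%. In the highest decile, 20 of 23 HoxA regions overlapped an E11.5 region (87.0%), beside the 96.7% of the list. In the highest 2 deciles together the share was 24 of 37 (64.9%, 48.8 to 78.2), beside 89.0% of the list.

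Within the cluster, 13 of 36 E10.5 regions had an E11.5 partner (36.1%, 22.5 to 52.4), where regions of like signal value gave 55.6% over the list and regions of like −log10 p gave 44.6%, which lies inside the interval. From Hoxa9 to Hoxa13 the share was 6 of 9 (66.7%), beside 69.7% by signal value and 63.0% by −log10 p. Openness at E10.5 was unequal along it. From its edge on the Skap2 side to Hoxa4, 20 regions covered 48.8% of 51.387 kb, with a mean signal value of 1.71 per covered bp. From Hoxa5 to Hoxa7, 7 regions covered 85.0% of 21.343 kb, and from Hoxa9 to Hoxa13, 9 regions covered 85.2% of 42.784 kb, with 3.02 and 3.01 per covered bp. The limb-active end and the middle of the cluster were thus held in few wide regions, and the end up to Hoxa4 in many short ones.

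At E11.5 the same 3 stretches held 4, 5 and 8 regions that covered 5.49%, 18.9% and 18.8%. Regions wider than 2 kb made up 6.47% of the whole E10.5 list and 14 of the 36 in the cluster. None of the 17 E11.5 cluster regions was that wide, in a list where 4.09% were. The widest E11.5 region of the cluster measured 1453 bp.

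**Figure D2:**
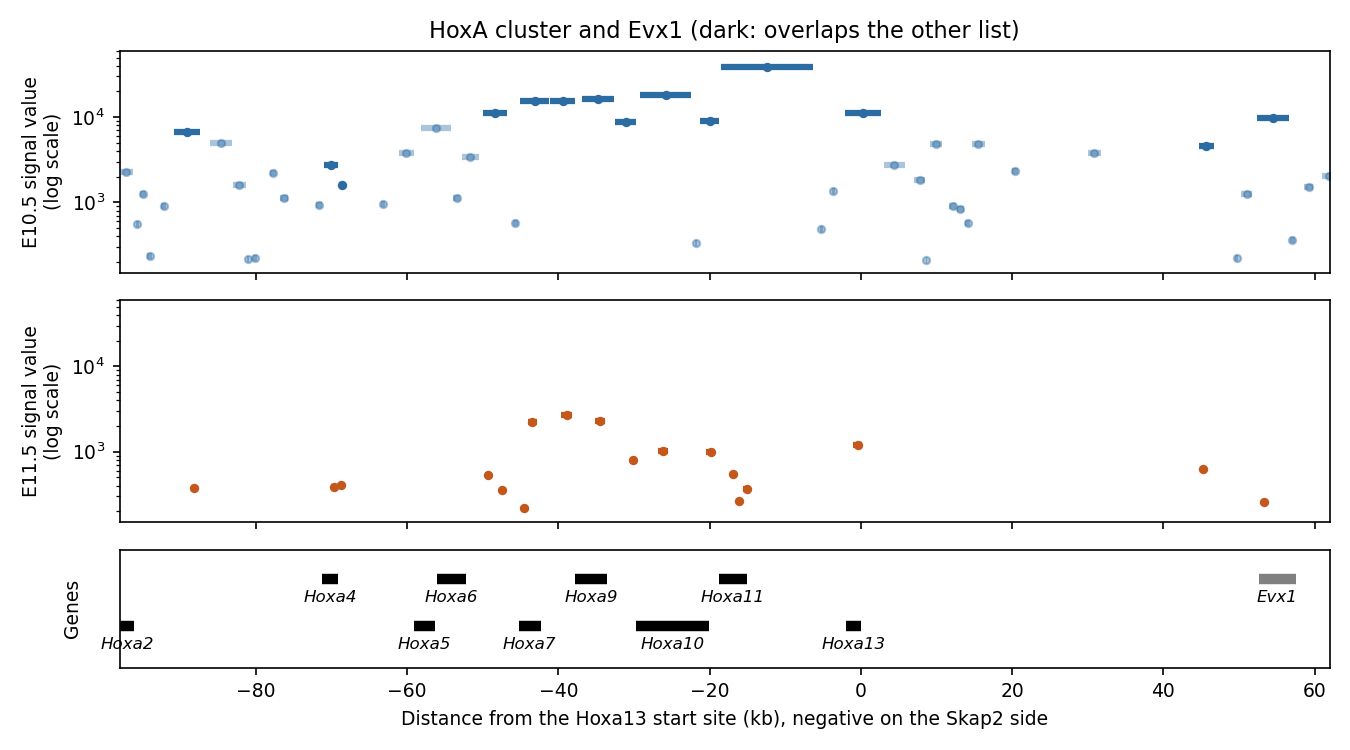
Signal value (log scale) of E10.5 regions (top) and E11.5 regions (middle) from Hoxa2 to Evx1 against distance from the Hoxa13 start site in kb, with gene spans below (Hoxa3, whose span holds Hoxa4 to Hoxa6, is left out). Segments span the region's width, and pale segments overlap no region of the other list. The widest and highest E10.5 segment lies at Hoxa11 (12173 bp, 38499), and the E11.5 segments below it are short.

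All 9 members had an E10.5 region within 1 kb of the start site, and 7 of 9 had an E11.5 region there. Over 21536 protein-coding genes with a known strand, 66.3% had one at E10.5 and 59.9% at E11.5. An E10.5 region lay over the start base itself in 8 of 9 members, all but Hoxa4, beside 60% of genes. At E11.5 this held for 3 of 9, Hoxa10, Hoxa11 and Hoxa13, beside 53.8% of genes. Within 500 bp of the start the counts were 9 and 6 of 9, beside 64.1% and 58.1% of genes. Hoxa10, Hoxa11 and Hoxa13 are neighbours at the limb-active end. Of the other members open at E11.5, Hoxa3, Hoxa7 and Hoxa9 had their region to one side of the start. Hoxa4 had 2 regions, which flank its start without covering it.

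Hoxa13, required for digits and the hand and foot plate, lay wholly inside its E10.5 region chr6:52258726-52263503, which was 4778 bp wide and had a signal value of 11162 (rank 1324, percentile 98.7). Its E11.5 region chr6:52259834-52261063 was 1230 bp wide, had a signal value of 1209 (rank 14241, percentile 61.9) and covered 51.6% of the gene. Both lay over the start site, and their summits were 52 bp apart. The E10.5 region also reached the start of Hottip, a long noncoding RNA read in the opposite direction from the Hoxa13 end of the cluster. No E11.5 region came nearer than 1712 bp to the Hottip start.

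Hoxa11, which patterns the forearm and lower leg together with Hoxd11, lay under the strongest region of the window. The E10.5 region chr6:52242359-52254531 was 12173 bp wide and had a signal value of 38499, rank 12 of 99356. It ran from inside Hoxa11 across the whole of Hoxa11os, the antisense RNA of Hoxa11, toward Hoxa13. Per bp its signal value was 3.16, at percentile 89.0, so its rank rests in part on its width.

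Inside that interval the E11.5 list had 3 regions of 564, 544 and 984 bp. Their signal values were 546, 265 and 365, at percentiles 41.9, 13.6 and 27.4. The one over the Hoxa11 start, chr6:52245274-52246257, had 0.371 per bp, at percentile 0.414 of its list. The gene with the highest E10.5 value of the cluster thus had E11.5 regions in the lower part of the E11.5 list. From the start site toward Hoxa13, the rest of the wide E10.5 interval held no other E11.5 region.

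Hoxa10, which acts in the upper hindlimb and the reproductive tract, has 2 RefSeq start sites. Around the outer one, the E10.5 region chr6:52239657-52242183 had a signal value of 8900 (percentile 97.3) and the E11.5 region chr6:52240411-52241642 had 991 (percentile 57.6). The inner start lay in the E10.5 region chr6:52231684-52238427, 6744 bp wide, with a signal value of 18031 (rank 210). The E11.5 region there, chr6:52234041-52235428, had 1011 (percentile 58.1). Summits of the lists lay 4 bp apart at the outer start and 14 bp apart at the inner one.

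Hoxa9, which has a role in the upper limb and in blood progenitors, had the E10.5 region chr6:52223955-52228227, with a signal value of 16168 (rank 337). The E11.5 region chr6:52225671-52227112, at 2270 (percentile 75.0), stopped 258 bp inside the gene from the start. Next to it, the stretch between Hoxa9 and Hoxa7 was open in both lists although it overlaps no annotated gene. It held the E10.5 region chr6:52219808-52223075 with a signal value of 15376 (rank 410) and the E11.5 region chr6:52221277-52222729 with 2717 (rank 7880, percentile 78.9). The latter was the strongest and widest E11.5 region of the cluster.

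Hoxa7, a trunk patterning gene, had the E10.5 region chr6:52215807-52219683 with a signal value of 15480 (rank 402). Its E11.5 region chr6:52216806-52218060, at 2227 (percentile 74.6), lay 513 bp inside the gene from the start. A weaker E11.5 region of 430 bp and signal value 220 lay farther inside, and together they covered 57.1% of Hoxa7, the most of any member. Hoxa7, Hoxa9 and the stretch between them therefore carried the 3 highest E11.5 values of the cluster, ahead of that of Hoxa13.

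Hoxa6 and Hoxa5 were the 2 members without an E11.5 region. Hoxa6, which acts in the trunk, had its start in the E10.5 region chr6:52208111-52210361, with a signal value of 3423 (percentile 83.9), and 89.1% of the gene was covered. The nearest E11.5 region was 2759 bp away. Hoxa5, needed for lung and neck patterning, had its start in the E10.5 region chr6:52202728-52206719, 3992 bp wide, with a signal value of 7542 (rank 4239, percentile 95.7). The nearest E11.5 region was 6844 bp away. Of all E10.5 regions in the same decile by signal value, 96.7% had an E11.5 partner, and the Hoxa5 region was 1 of 3 HoxA regions in that decile without one. By −log10 p the Hoxa5 region stood at percentile 71.6, and 55.5% of all E10.5 regions in its decile by that value had a partner.

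Hoxa4, a neck and trunk patterning gene, had its start in a gap between 2 E10.5 regions. These were chr6:52189932-52191686 at a signal value of 2757 (percentile 80.0) and chr6:52191860-52192684 at 1597 (percentile 68.0). Each overlapped 1 weak E11.5 region, at 387 and 403 (percentiles 29.6 and 31.2). Hoxa4 was the member with the lowest E10.5 signal value near the start.

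Hoxa3, which patterns the pharyngeal arches, thymus and parathyroid, is annotated here with a single start between Hoxa6 and Hoxa7, so that its 44009 bp span holds Hoxa4, Hoxa5 and Hoxa6. Regions in that span cannot be assigned to Hoxa3 alone. The E10.5 region at its start, chr6:52210949-52214045, had a signal value of 11222 (rank 1301, percentile 98.7). Its nearest E11.5 region, chr6:52213162-52213621, had 358 (percentile 26.5) and lay 95 bp outside the start. In the part of Hoxa3 near Hoxa2, the E10.5 region chr6:52170036-52173463 had 6676 and a short E11.5 region of 348 bp inside it had 380.

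Among the neighbours, Hoxa2, which patterns the hindbrain and pharyngeal arches, had 3 E10.5 regions near the start, the one inside the gene at 2262, and no E11.5 region within 1 kb. Evx1, a homeobox gene beyond Hoxa13, lay under the E10.5 region chr6:52313313-52317513 at 9777 (percentile 98.0), while its E11.5 region of 296 bp had 255 (percentile 11.9).

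In order of E10.5 signal value near the outer start, the members ran Hoxa11, Hoxa9, Hoxa7, Hoxa3, Hoxa13, Hoxa10, Hoxa5, Hoxa6 and Hoxa4. Hoxa3 and Hoxa13 (11222 and 11162) and Hoxa9 and Hoxa7 (16168 and 15480) stood next to each other with values so close that, without replicates, no order between them can be read. The wider gaps have no replicate spread either, and the order as a whole could not be tested. In order of E11.5 signal value the members ran Hoxa9, Hoxa7, Hoxa13, Hoxa10, Hoxa4, Hoxa11 and Hoxa3, of which Hoxa9 and Hoxa7 (2270 and 2227) and the last 3 (403, 365 and 358) were likewise close. Hoxa11 led the E10.5 order and stood near the end of the E11.5 order. Its E11.5 value there is that of 1 of the 3 E11.5 regions inside its E10.5 region. The 3 together came to 1177, close to the 1209 of Hoxa13. Per bp at E10.5, Hoxa11 (3.16) stood below Hoxa7 (3.99), Hoxa9 (3.78), Hoxa3 (3.62) and Hoxa10 (3.52). Per bp at E11.5 it was the lowest of these members, at 0.371. Its place in the E10.5 order thus rests in part on region width. Its place in the E11.5 order rests in part on how regions were split, and stayed at the low end per bp.

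**Figure D3:**
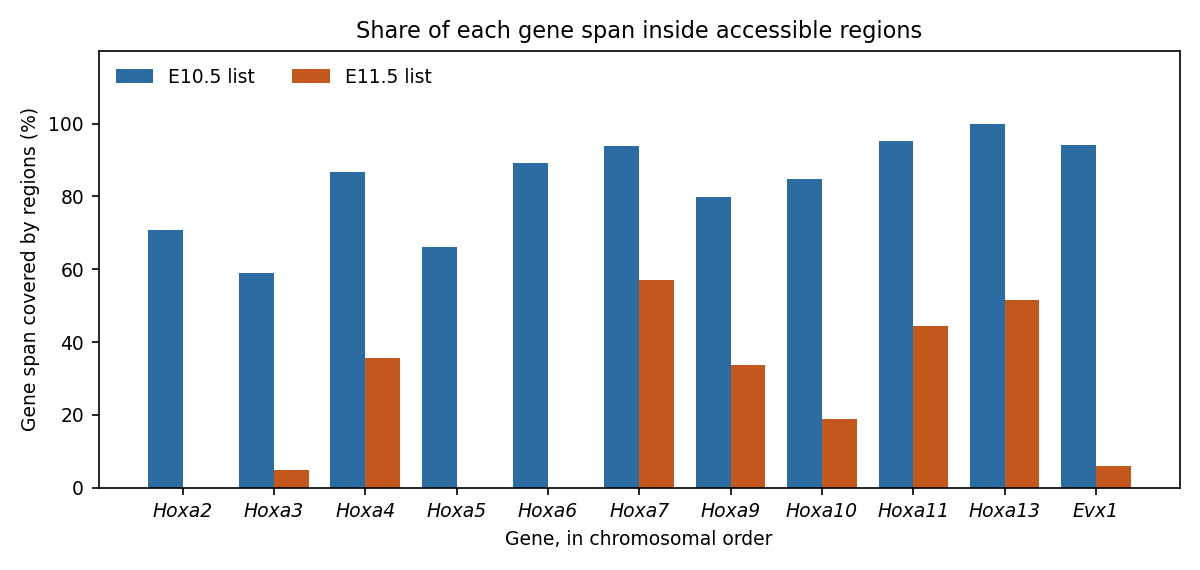
Percent of each gene span covered by regions of the E10.5 list (blue) and the E11.5 list (orange), for the HoxA genes and Evx1 in chromosomal order (1 joined list per stage, no error bars). Every gene is higher at E10.5. At E11.5 Hoxa2, Hoxa5 and Hoxa6 stand at 0 and Hoxa7, at 57.1%, and Hoxa13, at 51.6%, are the highest.

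The gene spans themselves were covered to 79.9% (Hoxa9) or more from Hoxa6 to Hoxa13, to 66.0% in Hoxa5, to 86.8% in Hoxa4 and to 59.1% in Hoxa3 at E10.5. At E11.5 coverage was 44.4% in Hoxa11, 35.5% in Hoxa4, 33.7% in Hoxa9, 18.97% in Hoxa10, 4.77% in Hoxa3 and 0 in Hoxa5 and Hoxa6. Coverage depends on the width at which a list was called as well as on openness.

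The E10.5 regions of highest signal value without any E11.5 overlap were listed for each part of the window. In the cluster, the strongest were the Hoxa5 region and chr6:52174887-52177690 at 4958, which holds the start of the long noncoding RNA 5730596B20Rik inside Hoxa3. On the Hoxa13 side they were chr6:52794482-52798321 inside Jazf1 at 9458 (percentile 97.7), and chr6:52270027-52271648 and chr6:52275575-52277287 between Hoxa13 and Evx1, at 4817 and 4791 (percentiles 89.6 and 89.5). On the Skap2 side chr6:52005975-52007637 in Skap2 led with 3110 (percentile 82.2), followed by 1663 and 579 at regions outside genes (percentiles 69.0 and 38.0), and both regions of the highest decile had an E11.5 partner.

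The interval between Hoxa13 and Evx1, where limb enhancers of the cluster are known, had 13 regions over 30.8% of 47.617 kb at E10.5. At E11.5 it had 1 region, chr6:52305858-52306443, with a signal value of 620, over 1.23%. That region lay inside the E10.5 region chr6:52305569-52307518, at 4545. Of the 13, 12 lacked an E11.5 partner. The share with one was 7.69% (1.37 to 33.3), where regions of like signal value gave 43.9% over the list and regions of like −log10 p gave 30.7%, which lies inside the interval. The Hoxa13 gene, covered in both lists, thus bordered on an interval with many E10.5 regions and a single E11.5 region.

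Beyond Evx1, up to Hibadh (valine breakdown), 21 E10.5 regions covered 7.20% of 227.84 kb, and 2 E11.5 regions covered 0.614%. The E10.5 regions that overlapped them were chr6:52442559-52444318 at 5713 (percentile 92.1) and chr6:52417420-52418205 at 3285 (percentile 83.1), and the E11.5 regions had 911 and 324. The strongest without overlap there was chr6:52476500-52477760, at 4561. Apart from the regions over its start site, the Hibadh gene body held 9 E10.5 regions, the highest at 1878, and none of the E11.5 list.

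Inside Jazf1, a zinc finger gene, the window held 29 E10.5 regions and 5 E11.5 regions over 24.1% and 1.81% of 131.936 kb. Its strongest E10.5 regions were chr6:52775928-52780338, at 15187 (rank 425), and chr6:52837234-52841551, at 11809 (rank 1107). The E11.5 regions inside them had 451 and 607. Both E10.5 values were above those of the Hoxa13 and Evx1 regions, and neither region lies within 1 kb of a start site. All 5 E11.5 regions in Jazf1 were at or below 607.

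In all, the Hoxa13 side (634.12 kb) had 83 E10.5 regions and 11 E11.5 regions, a ratio of 7.55 beside 2.66 for the whole lists. Of the 83, 11 had an E11.5 partner (13.3%, 7.56 to 22.2), where regions of like signal value gave 34.0% over the list and regions of like −log10 p gave 31.2%. The Skap2 side (150.367 kb) had 11 and 3 regions. Its strongest E10.5 region outside genes, chr6:52053434-52054842 at 6318, held 2 E11.5 regions, at 517 and 480. Of all window regions, 50 of 130 at E10.5 and 6 of 31 at E11.5 overlapped no annotated gene.

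The highest E11.5 values of the window stood at the start sites of flanking genes and not at Hox genes. Skap2 (an adaptor of Src kinases) had 6000 at E10.5 and 3734 at E11.5, Hibadh 6274 and 3672, and Tax1bp1 (an autophagy adaptor) 4121 and 3342. The 3 E11.5 values were at percentiles 86.2, 85.8 and 83.6. At E10.5 the same 3 starts lay below Hoxa3, Hoxa5, Hoxa7, Hoxa9, Hoxa10, Hoxa11 and Hoxa13, and above Hoxa6 and Hoxa4.

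Because the lists differ in length, the percentile of each region was also taken among the regions that overlap the other list, 32087 at E10.5 and 34338 at E11.5. Over all 34604 overlapping pairs this percentile was higher in the E10.5 list in 47%. Among the 31 HoxA pairs it was higher in 27. The medians of these pairs were 91.0 in the E10.5 list and 39.3 in the E11.5 list, where all pairs had 52.7 and 50.3. In the cluster alone the medians were 96.0 and 39.3 over 17 pairs.

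The 4 pairs that went the other way were the Skap2, Hibadh and Tax1bp1 starts and the region outside the Hoxa4 start. With the signal value per bp, which does not grow with width, 28 of 31 pairs were higher in the E10.5 list, where 48.1% of all pairs were. The exceptions were then Hibadh, Tax1bp1 and the short region in Hoxa3 near Hoxa2. Pairs that share an E10.5 region are not independent, since 4 E10.5 regions held more than 1 E11.5 region.

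**Figure D4:**
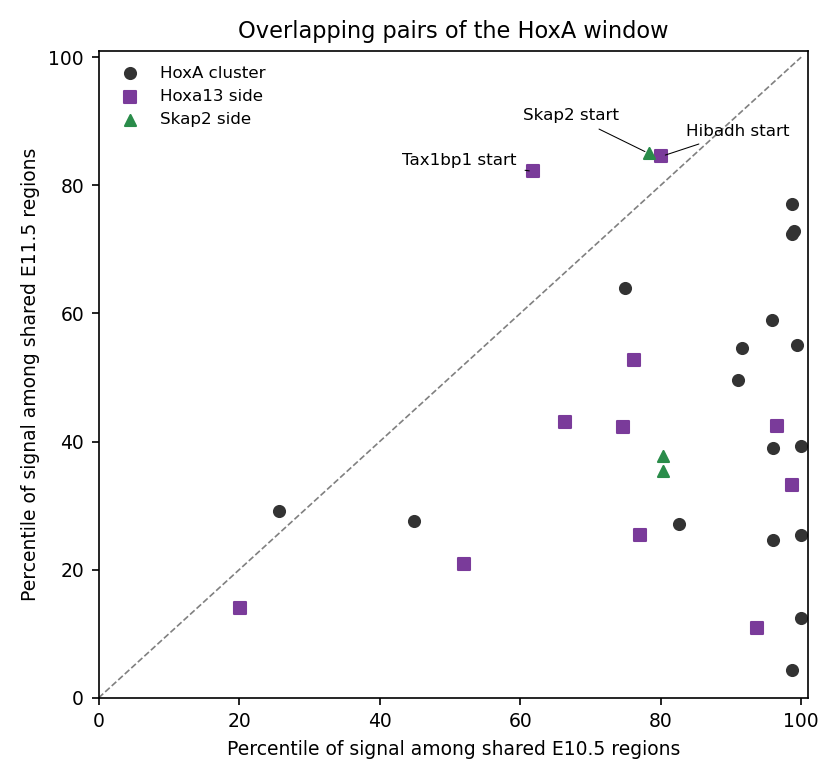
Percentile of signal value among overlapping regions of the E10.5 list (x axis) and of the E11.5 list (y axis) for the 31 overlapping pairs of the window, by part of the window (symbols). The dashed line marks equal percentiles. Below it lie 27 of the 31 pairs, and the Skap2, Hibadh and Tax1bp1 start sites lie above it.

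The pairs also differed in width. The E10.5 region was wider than its E11.5 partner by a median ratio of 3.09 in the window and 4.46 in the cluster, where all pairs had 1.65. The ratio was between 0.989 at Tax1bp1 and 22.4 at Hoxa11. Of the 31 E11.5 regions, 29 lay wholly inside their E10.5 region, beside 78.7% of all pairs. Summits lay within 100 bp of each other in 17 of 31 pairs, among them the stronger Hoxa7 pair and those at Hoxa10 and Hoxa13.

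The other Hox clusters, measured with the same 5 kb margins, differed from HoxA in degree. At E10.5 regions covered 69.0% of HoxA, 53.1% of HoxC, 49.2% of HoxD and 17.3% of HoxB. At E11.5 they covered 12.9% of HoxA, 11.2% of HoxD, 7.16% of HoxC and 0.768% of HoxB. HoxA thus had the highest covered share of the 4 in both lists, with HoxD close to it at E11.5. By number of regions HoxC was denser at E10.5, with 38.2 per 100 kb beside 31.2 in HoxA. The ratio of covered bp between the lists was 5.36 in HoxA, 4.39 in HoxD, 7.43 in HoxC and 22.5 in HoxB. All 4 were above the 2.88 of the whole lists, so a ratio above that of the lists is not particular to HoxA.

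All E11.5 regions of the 4 clusters overlapped an E10.5 region, beside 91.8% of the whole list: 17 in HoxA, 12 in HoxD, 10 in HoxC and 4 in HoxB. Of the E10.5 regions, the share with an E11.5 overlap was 36.1% in HoxA, 32.3% in HoxD (18.6 to 49.9), 18.8% in HoxC (10.2 to 31.9) and 9.76% in HoxB (3.86 to 22.5). Over the whole E10.5 list it was 32.3%. In the same order of clusters, regions of like signal value gave 55.6%, 49.0%, 40.9% and 23.1% over the list. Those of like −log10 p gave 44.6%, 36.8%, 29.1% and 20.8%. The share was thus below both values in each of the 4 clusters, and not in HoxA alone. The HoxA interval of 22.5 to 52.4 overlapped those of HoxC and HoxD widely and that of HoxB at its edge, and no test of these shares was made. An E11.5 region lay within 1 kb of the start in 7 of the 9 HoxA members, 7 of 9 HoxD genes, 4 of 9 HoxC genes and 3 of 10 HoxB genes.

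**Figure D5:**
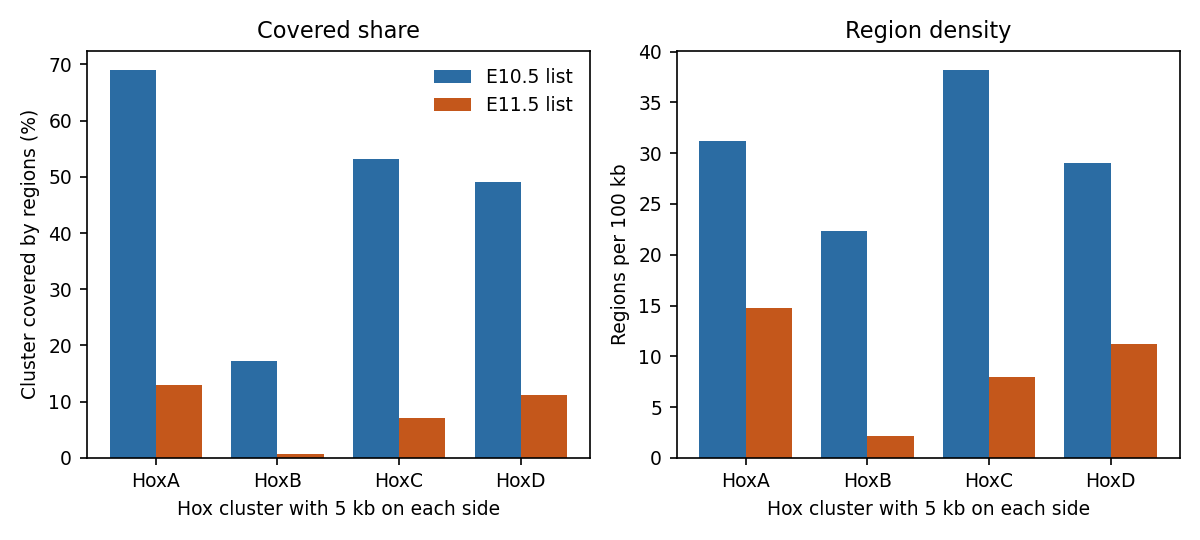
Percent of each Hox cluster covered by regions (left) and regions per 100 kb (right) in the E10.5 list (blue) and the E11.5 list (orange), each cluster with 5 kb on each side (1 joined list per stage, no error bars). HoxA has the highest covered share in both lists (69.0% and 12.9%) and HoxC the highest region density at E10.5 (38.2 per 100 kb).

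Genes that work with or below the HoxA proteins had a region near the start in nearly all cases, from lists that are not independent of earlier results. HOX proteins bind DNA together with the PBX and MEIS families. Of 9 genes of those families and PKNOX, 9 had a region within 1 kb of the start at E10.5 and 8 at E11.5, where Meis3 lacked one. Of 8 genes reported to respond to Hoxa11 or Hoxa13 in the limb (Bmp2, Bmp7, Aldh1a2, Epha7, Sostdc1, Runx2, Shox2 and Shh), 8 had one at E10.5 and 7 at E11.5, where Runx2 lacked one. Over all protein-coding genes the shares were 66.3% and 59.9%. The counts take no account of signal value, which for the response genes ranged from percentile 29.7 (Runx2) to 99.97 (Bmp7) at E10.5. At E11.5 it ranged from 6.52 (Shh) to 99.8 (Epha7).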

How the data were processed

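The 2 deposited peak lists, 1 per stage and each named for both replicates, are narrowPeak tables on mm10, per the file headers. The submitters' processing notes name cutadapt, Bowtie2, SAMtools, deepTools and Genrich. Their versions and roles, the joining of replicates and any shift of read ends for Tn5 are not given in the sources used here. The authors' signal value grows with peak width like a sum. In 100% of peaks the deposited score is that value per bp, times 1000 and capped at 1000, to within 1. The score was therefore not ranked, and ranks are by signal value unless signal value per bp or −log10 p is named. Each peak also has a deposited −log10 p-value. The deposited q-value column holds only a placeholder. The lists held 99427 and 37548 peaks. Peaks never overlapped within a list and are called regions.

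Regions that overlap the window were placed by summit in the cluster or a flank. Regions of the lists were called overlapping from 1 bp, and shares carry 95% Wilson intervals. Gene spans, promoters and miRNAs came from RefSeq tables of GRCm38.p6. Strand came from the promoter table or, by symbol, from GENCODE M1, for 21536 of 21887 protein-coding genes (98.4%). The start site is the outer end of the gene. The text names the 9 members, Hoxa2, Evx1 and genes under named regions. Named regions are those within 1 kb of a member's start, the 5 strongest per part and list, the widest, and the 3 strongest E10.5 regions without overlap per part; a few results that these rules would name are not reported here, and the strongest of some smaller intervals were added after their values were seen. Members, lists and rules were chosen with earlier results of these data known. Overlap code was tested on simulated data. Python 3.11.15, numpy 2.4.6, pandas 2.3.3, scipy 1.17.1 and matplotlib 3.10.9 were used. Alternatives changed the overlap rule, the ranking value, the −log10 p minimum, the number of E10.5 regions, the bounds and the promoter distance.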

Additional observations from a re-analysis of the deposited data

How the results depend on the processing

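Of 50 values computed for 14 results under 12 alternative settings, 22 stayed close to the main value and 28 moved. A count was called moved when it differed by more than 1.5-fold, and a share or median percentile when it left the 95% interval of the main value. For covered sequence that interval treats each bp as independent (68.7 to 69.3% for the cluster at E10.5), so small changes were called moved there. With only regions at −log10 p of at least 5, the window held 79 and 10 regions at E10.5 and E11.5, the cluster 6 at E11.5, the Hoxa13 side 48 and 2, and covered cluster sequence was 63.6% and 6.72%. The share of E10.5 window regions that overlapped was then 12.7% (list 32.4%), and 4 members had an E11.5 region near the start. These counts fall by construction, since fewer regions remain. With only as many E10.5 regions as the E11.5 list has, taken by signal value, the window held 62 E10.5 regions, the cluster 23 and the Hoxa13 side 35, cluster coverage was 61.9%, and the overlapping share was 41.9% (list 68.9%). Taken by −log10 p, these were 55, 20, 32, 54.2% and 47.3% (list 70.2%). An overlap of at least 50% of both regions gave 5.38% at E10.5 and 22.6% at E11.5 (lists 20.3% and 53.8%), and summits within 100 bp gave 13.1% and 54.8% (lists 26.6% and 70.6%). Under every one of these rules the E10.5 share of the window stayed below that of the list, while the E11.5 share was above the list's only for overlap of 1 bp and below it for the last 2 rules. The 50% rule also measures width, since a region narrower than 50% of its partner cannot meet it. Ranked by signal value per bp, the median percentile of the window was 47.6 in the E10.5 list, and 25.1 in the other. With the cluster bounded from Hoxa3 to Hoxa13 and no margin, coverage was 72.6% and 14.7%. A region over the start base itself was found in 3 members at E11.5. Apart from these constructions, the cause was not tested. Counting a region near any start site in the promoter table, an alternative chosen after seeing the data, left 9 and 7 members. No paired analysis was possible because replicates were deposited jointly, as 1 list per stage, and leaving out a replicate could not be done either. Sequencing depth, unknown here, can set how many regions a caller reports and how wide they are.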
